A study of Mus musculus with 56 samples.

Results

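The genes described here are 10 components of the NF-κB pathway in the mouse liver, chosen by name from the 45513 genes in the count files. They are the 5 subunits of the transcription factor (Nfkb1, Nfkb2, Rel, Rela and Relb), its inhibitors Nfkbia and Nfkbie, and the feedback and target genes Tnfaip3, Bcl3 and Birc3. All 10 passed the filter on low counts. Liver mRNA was sequenced from 56 female APOE*3Leiden.CETP mice, which carry human APOE*3-Leiden and human cholesteryl ester transfer protein. They ate a Western-type diet with 0.15% cholesterol and 15% cacao butter. The stated age of 9 to 14 weeks is that of the mice taken into the study, and livers were collected later, after treatment. There were 8 mice in each of 7 groups. The control group received the vehicle carboxymethyl cellulose by gavage. Imatinib was given at 150 mg/kg in each of 2 gavages per day, and nilotinib (10 or 30 mg/kg) and ponatinib (3 or 10 mg/kg) in 1 gavage per day beside 1 of vehicle, for 16 weeks. The L-NAME group received vehicle gavages and 0.12 to 0.20% L-NAME in its water, for a time that the labels do not give. Imatinib, nilotinib and ponatinib inhibit the BCR-ABL1 tyrosine kinase, and L-NAME inhibits nitric oxide synthase. Mice are named by their library number.

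NF-κB is a family of dimeric transcription factors that proteins of the IκB family hold in the cytoplasm. In the canonical arm, signals from cytokine and Toll-like receptors activate a kinase complex that marks IκBα for degradation, which frees dimers of RelA and p50. In the non-canonical arm the p100 precursor, the product of Nfkb2, is processed to p52, which pairs with RelB. Several of the genes that NF-κB switches on encode its own subunits and brakes, among them Nfkbia, Nfkb2 and Tnfaip3. In the liver the pathway acts in Kupffer cells and other leukocytes as well as in hepatocytes.

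The 250 bases before each RefSeq transcript start (GRCm38.p6, 32851 windows) were searched on both strands for the κB motif of 10 letters, which opens with GGG, a purine, any 2 letters and 2 pyrimidines and ends with CC. Of the 10 genes, 8 were matched by name to 11 windows, and Nfkb1 and Relb were not matched. The motif was found for 5 of these 8 genes (Nfkb2, Rel, Nfkbia, Nfkbie and Tnfaip3) and in 7 of the 11 windows, and not in the windows of Rela, Bcl3 and Birc3. Among all windows 7.25% held it, and 8.23% of 27025 genes had it in at least 1 window. A window is shown for Nfkb2, Nfkbie and Tnfaip3, whose expression was lower with imatinib in the results that follow, and for Nfkbia, which has the motif and was not called. Capitals mark the motif, and overlapping matches run together.
Nfkb2 (chr19:46304487-46304736, plus strand): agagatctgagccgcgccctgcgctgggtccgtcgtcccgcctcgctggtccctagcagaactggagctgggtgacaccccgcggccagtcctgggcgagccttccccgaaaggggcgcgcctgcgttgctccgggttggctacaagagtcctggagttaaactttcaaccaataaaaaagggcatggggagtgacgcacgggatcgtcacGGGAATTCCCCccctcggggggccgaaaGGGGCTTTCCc
Nfkbie (chr17:45555450-45555699, plus strand): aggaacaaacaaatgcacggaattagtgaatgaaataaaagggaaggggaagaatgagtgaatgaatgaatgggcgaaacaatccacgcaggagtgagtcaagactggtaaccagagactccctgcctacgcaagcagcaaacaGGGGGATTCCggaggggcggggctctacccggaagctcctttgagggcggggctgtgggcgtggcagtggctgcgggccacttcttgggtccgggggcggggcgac
Tnfaip3 (chr10:19015411-19015660, minus strand): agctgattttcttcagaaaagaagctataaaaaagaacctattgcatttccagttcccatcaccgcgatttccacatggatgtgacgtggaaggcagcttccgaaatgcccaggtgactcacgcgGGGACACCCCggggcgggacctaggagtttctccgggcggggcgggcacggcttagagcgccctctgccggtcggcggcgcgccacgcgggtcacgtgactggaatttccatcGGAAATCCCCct
Nfkbia (chr12:55492648-55492897, minus strand): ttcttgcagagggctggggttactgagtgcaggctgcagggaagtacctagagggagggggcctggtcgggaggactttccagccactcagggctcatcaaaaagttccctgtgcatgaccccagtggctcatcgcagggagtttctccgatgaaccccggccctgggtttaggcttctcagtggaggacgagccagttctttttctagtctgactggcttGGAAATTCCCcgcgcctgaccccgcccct
The Nfkb2 window held 3 matches, 2 of which overlapped, the Tnfaip3 window 2 and the Nfkbie and Nfkbia windows 1 each. A match of letters describes the sequence, and no binding was measured in these livers.

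Expression is given as CPM, the usual depth-scaled read count of a gene, computed from reads on genes after TMM scaling. Between 5342379 and 17996732 reads fell on genes in 55 mice, and 97473341 in L-NAME mouse 10. Per kilobase of exon, Nfkbia (25.2 ± 4.38 CPM per kb, SD, n = 8) and Rela (20.2 ± 2.70 CPM per kb) had the highest levels in control mice. Lower levels were found for Bcl3 (8.54 ± 2.79), Nfkb2 (4.92 ± 1.37), Birc3 (4.38 ± 1.08), Nfkb1 (3.29 ± 0.660), Nfkbie (2.64 ± 0.857), Relb (2.04 ± 0.726), Tnfaip3 (1.47 ± 0.723) and Rel (1.38 ± 0.500 CPM per kb). The ranges of mean ± SD overlapped between all neighbours in this order except Rela and Bcl3. The hepatocyte transcript Alb was present at 86658 CPM and the Kupffer cell transcript Clec4f at 183 CPM in control mice.

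**Figure D1:**
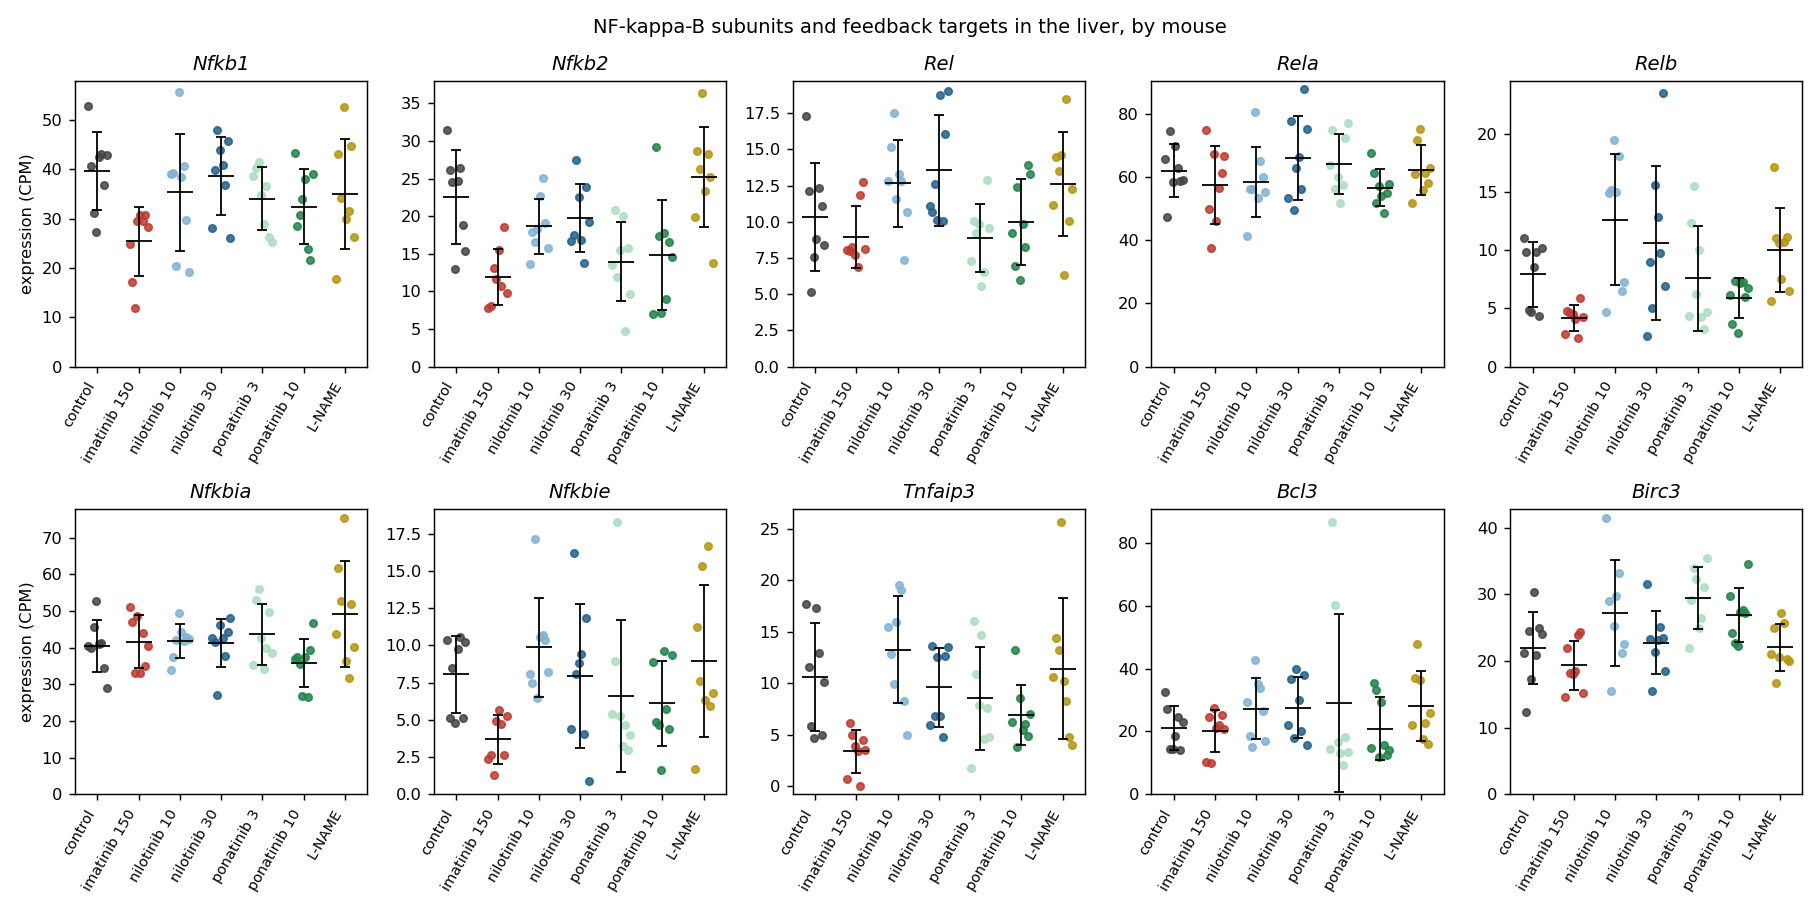
Expression (CPM, linear axis) of the 10 genes in each of the 56 mice, with 1 panel per gene. Points are mice, horizontal bars the group mean and error bars the SD (n = 8); the imatinib mice lie low for Nfkb1, Nfkb2, Relb, Nfkbie and Tnfaip3, and 2 ponatinib 3 mg/kg mice lie above all others for Bcl3, at 60.2 and 86.6 CPM.

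With imatinib the expression of Nfkb1, Nfkb2, Relb, Nfkbie and Tnfaip3, 5 of the 10 genes, was lower than in control mice, and that of none was higher. A gene was called where edgeR's quasi-likelihood test gave p below 0.01 without adjustment, the cut-off of the study. By this rule 12.9% of the 14314 genes tested were called with imatinib, 6.06% lower and 6.85% higher. With Benjamini-Hochberg adjustment at 0.05, Nfkb1, Nfkb2 and Tnfaip3 passed (10.3% of all genes, 4.58% lower). The median log2 fold change was -0.43 over the 10 genes and -0.022 over all genes tested.

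Tnfaip3, which encodes the ubiquitin-editing enzyme A20 that ends NF-κB signaling, had the largest decrease of the 10. It ranged from 4.67 to 17.7 CPM in control mice (median 10.8) and from 0 to 6.09 CPM with imatinib (median 3.67). Of the 8 imatinib mice, 6 lay below every control mouse. In imatinib mouse 39, 0 of 7101060 reads fell on Tnfaip3, which allows up to 0.422 CPM before TMM scaling (3 reads, counting error only). The log2 fold change was -1.65 ± 0.41 (SE; 95% interval -2.48 to -0.83; edgeR, adjusted p = 0.00557).

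Nfkb2, the gene of the p100/p52 subunit, ranged from 12.9 to 31.5 CPM in control mice (median 24.6) and from 7.80 to 18.6 CPM with imatinib (median 11.2). The groups overlapped, and 5 imatinib mice lay below every control mouse. Its log2 fold change was -0.93 ± 0.24 (SE; 95% interval -1.40 to -0.46; edgeR, adjusted p = 0.00647). Nfkb1, which encodes the p105 precursor and its p50 product, ranged from 27.2 to 53.0 CPM in control mice (median 41.6) and from 12.0 to 30.8 CPM with imatinib (median 28.9). Here 3 imatinib mice lay below every control mouse. The log2 fold change was -0.65 ± 0.19 (SE; 95% interval -1.03 to -0.26; edgeR, adjusted p = 0.0202). Tnfaip3, Nfkb2 and Nfkb1 were called when any 1 of the 16 mice was left out.

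Relb, the gene of the partner of p52, ranged from 4.31 to 11.1 CPM in control mice (median 9.19) and from 2.43 to 5.88 CPM with imatinib (median 4.41). The control mice were split for this gene. Mice 22, 28 and 46 had 4.31 to 4.85 CPM, within the range of the imatinib mice, and the other 5 had 8.56 to 11.1 CPM, above every imatinib mouse. The same 3 mice had the lowest Tnfaip3 of the control group, 4.67 to 5.79 CPM. The log2 fold change of Relb was -0.93 ± 0.33 (SE; 95% interval -1.59 to -0.27; edgeR, adjusted p = 0.0597).

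Nfkbie, which encodes the inhibitor IκBε, ranged from 4.81 to 10.6 CPM in control mice (median 9.13) and from 1.28 to 5.63 CPM with imatinib (median 3.69). Of the imatinib mice, 5 lay below every control mouse. Its log2 fold change was -1.13 ± 0.39 (SE; 95% interval -1.91 to -0.35; edgeR, adjusted p = 0.0508). Relb and Nfkbie were lost on leaving out single mice. Relb was not called without control mouse 1, 12, 40 or 52 or imatinib mouse 6 or 39 (log2 fold change -0.88 to -0.85), or by limma voom. Nfkbie was not called without control mouse 1, 40 or 52 or imatinib mouse 6, 11, 16 or 51.

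The remaining 5 genes were not called with imatinib. Rela, the gene of the main activating subunit, had 61.9 ± 8.29 CPM in control mice and 57.4 ± 12.4 CPM with imatinib (SD, n = 8 each), with a log2 fold change between -0.36 and 0.14 (95% interval). Nfkbia, the gene of IκBα, had 40.6 ± 7.06 and 41.6 ± 7.23 CPM (interval -0.24 to 0.32). Birc3, the gene of the ubiquitin ligase cIAP2, had 22.0 ± 5.42 and 19.4 ± 3.69 CPM (interval -0.50 to 0.14). For these 3 genes the intervals leave out a decrease as large as that estimated for Nfkb1. They do not for Rel, the gene of c-Rel (10.3 ± 3.73 and 8.96 ± 2.12 CPM; interval -0.65 to 0.22), or for Bcl3, an IκB-like coactivator (21.1 ± 6.91 and 20.2 ± 6.60 CPM; interval -0.71 to 0.57).

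**Figure D2:**
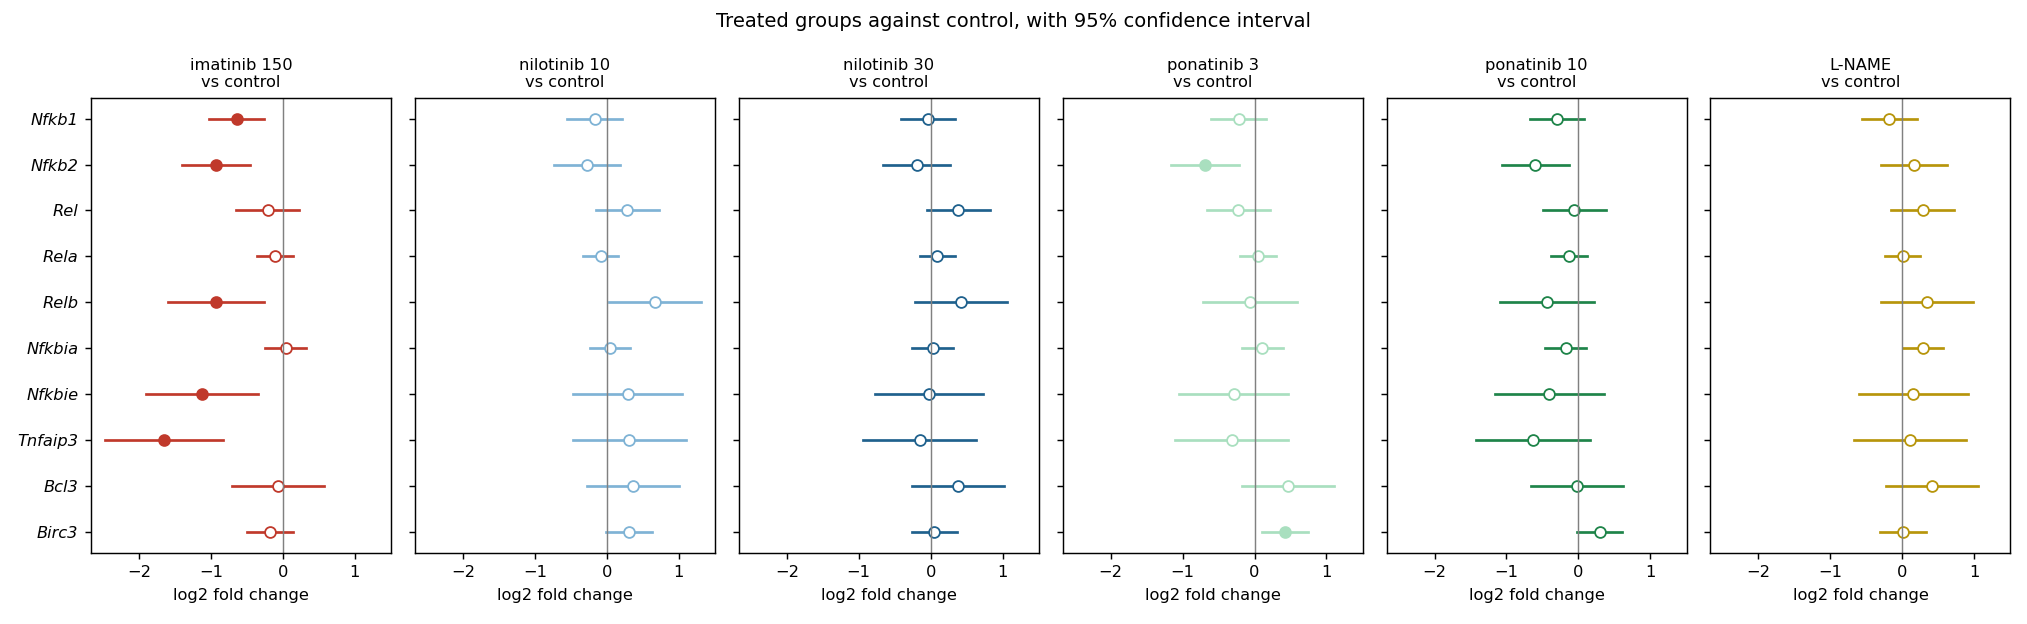
Log2 fold change of the 10 genes against control in the 6 treated groups (edgeR, 8 mice per group), with the point as the estimate and the line as its 95% interval. Filled points were called; imatinib has 5, all to the left of 0, ponatinib 3 mg/kg has 2 in opposite directions and the other groups have none.

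Transcripts of leukocytes were lower with imatinib as well. Of 4 general leukocyte markers, Ptprc (log2 fold change -0.98), Laptm5 (-1.14) and Cd53 (-1.08) were called lower and Coro1a (-0.49) was not. Their summed level was 79.1 ± 16.5 CPM (55.1 to 108 CPM) with imatinib and 156 ± 47.1 CPM (90.4 to 215 CPM) in control mice (SD, n = 8 each). Of 8 markers of Kupffer cells and macrophages, Adgre1 (-1.35), Cd5l (-1.23), Cd68 (-0.80) and Csf1r (-0.76) were called lower, while Clec4f (0.17), Timd4 (0.0060), Vsig4 (-0.25) and Marco (-1.34) were not. Their sum was 638 ± 139 CPM (421 to 883 CPM) with imatinib and 1073 ± 255 CPM (749 to 1520 CPM) in control mice. None of 4 monocyte and neutrophil, 4 B cell, 4 T cell, 5 sinusoidal endothelial cell and 4 cholangiocyte markers was called, and no marker of any list was at 0 in all mice of either group. Of 5 stellate cell and fibroblast markers, Col1a1 (12.5 against 101 CPM) and Col3a1 (33.6 against 204 CPM) were called lower, and of 5 hepatocyte markers Ttr (0.45) and Apoa2 (0.99) were called higher. In whole liver, fewer cells of a type and less RNA per cell cannot be told apart, and the part of these shifts in the lower expression of the 5 genes was not tested. Over the 56 mice, after each group's mean was subtracted, Pearson's r with the summed leukocyte markers was 0.44 for Nfkb1 and Nfkbie, 0.40 for Bcl3, 0.39 for Relb, 0.37 for Nfkb2 and 0.36 for Tnfaip3. It was 0.31 for Nfkbia, 0.16 for Rel, 0.13 for Birc3 and 0.12 for Rela, a description of values that share library and scaling. For Nfkb1 and Tnfaip3 no other marker sum had an r of larger size. For the other genes another sum did, such as the hepatocyte markers for Nfkb2 (-0.57). Ponatinib 10 mg/kg mouse 8 had the lowest hepatocyte sum and the highest Nfkb2 of its group, and its weight in this r was not tested. With the monocyte and neutrophil markers r was 0.51 for Relb and 0.50 for Bcl3. Reads outside annotated genes made up 10.0% ± 1.82 with imatinib and 7.97% ± 0.422 in control mice (SD, n = 8 each). Every mouse given nilotinib, ponatinib 10 mg/kg or L-NAME had a larger share (8.81% or more) than any control mouse (at most 8.67%). Shares with imatinib (from 8.16%) and ponatinib 3 mg/kg (from 7.78%) overlapped those of control mice. With this share as a covariate 5 of the 10 genes were called with imatinib. Because the share was tied to the control group, such a fit cannot fully separate it from treatment. Its part in the calls among all genes was not tested.

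**Figure D3:**
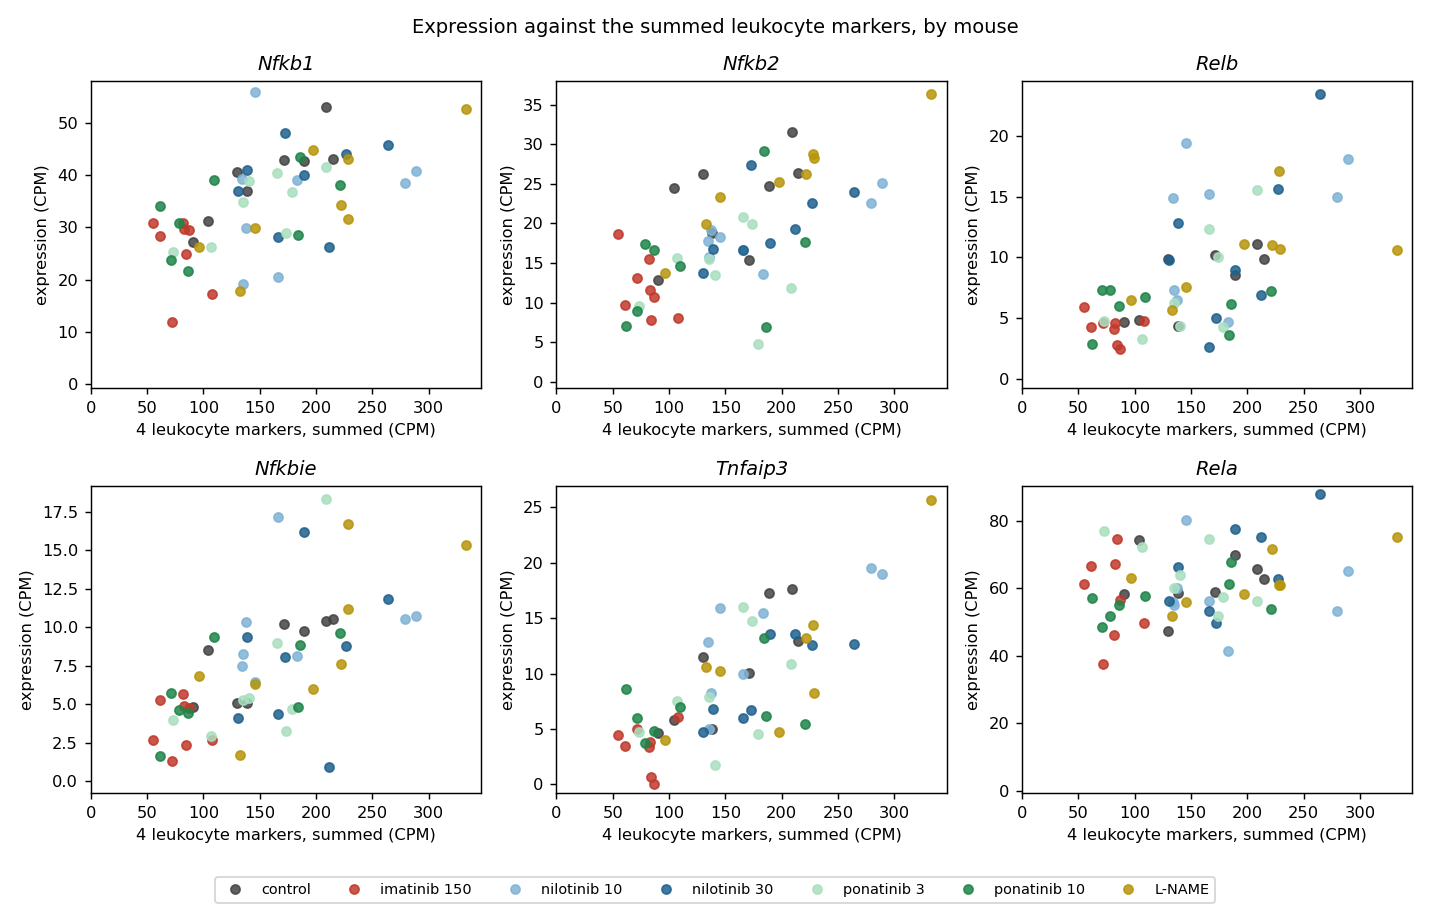
Expression (CPM) of Nfkb1, Nfkb2, Relb, Nfkbie, Tnfaip3 and Rela in each mouse against the summed level of the leukocyte markers Ptprc, Coro1a, Laptm5 and Cd53 (CPM), on linear axes and colored by group. The imatinib mice sit at the left, between 55.1 and 108 CPM on the marker axis, where their Rela values spread from 37.4 to 74.7 CPM. Mice of other groups lie in that range too, such as ponatinib 10 mg/kg mice 18 and 35 (61.8 and 71.3 CPM) and control mouse 28 (90.4 CPM).

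Other genes of the pathway were counted by role in the same fit. Of 23 receptors and adaptors tested, 7 were called lower with imatinib and none higher. Of these, 6 were Tlr2, a receptor for bacterial lipoproteins (3.81 ± 2.26 against 17.1 ± 8.15 CPM; log2 fold change -2.16 ± 0.39, SE), the receptor for double-stranded RNA Tlr3 (-0.82), the TNF receptor Tnfrsf1b (-0.56), the RANK receptor Tnfrsf11a (-1.35), and the signaling proteins Irak4 and Traf3 (both -0.80). Tnfrsf11a had no read in at least 1 imatinib mouse. None of 11 kinases and their partners was called by edgeR, 2 of them having an unadjusted p below 0.05 (3361 of all 14314 genes). Of 10 other IκB proteins and feedback regulators 1 was called, the deubiquitinase Otulin, which was higher (45.8 ± 7.55 against 32.4 ± 5.93 CPM; log2 fold change 0.50).

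Of 19 cytokine and other target genes tested, 7 were called lower with imatinib and none higher. Among them were the chemokines Ccl2 (log2 fold change -1.86) and Cxcl10 (-1.54), the cytokine Il1a (5.42 ± 2.61 against 10.9 ± 3.63 CPM) and the adhesion molecule Vcam1 (-0.89). The survival gene Bcl2a1b had 0.0633 CPM with imatinib and 0.854 CPM in control mice. Bcl2a1b was near the floor, with no read in at least 1 mouse of each group. Ccl2 had no read in at least 1 imatinib mouse. The median log2 fold change was -1.16 over the target genes and -0.34 over the receptors and adaptors. Without control mouse 1 the number of target genes called was 5.

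With nilotinib none of the 10 genes was called. By edgeR the lower dose called 5.97% of all genes and the higher dose 9.35%. Of the 10, 1 at the lower dose (2035 of all 14314 genes) and 0 at the higher (2673) had an unadjusted p below 0.05. DESeq2, limma and the exact permutation test also called none at either dose. Relb at 10 mg/kg was that 1 gene. It ranged from 4.68 to 19.4 CPM (median 14.9), with 5 nilotinib mice above every control mouse and 3 within the control range (log2 fold change 0.67, 95% interval 0.025 to 1.31; edgeR, adjusted p = 0.326). At 30 mg/kg the 95% intervals of Nfkb1, Nfkb2, Rela and Nfkbia lay between -0.66 and 0.34, and those of Tnfaip3 (-0.94 to 0.63) and Nfkbie (-0.78 to 0.73) were wider. Between the nilotinib doses none of the 10 genes was called by edgeR (1.32% of all genes). Of the 10, 0 had an unadjusted p below 0.05 (812 of all 14314 genes). Among the other pathway genes, the signaling kinase Ripk1 (10.1 ± 4.11 against 17.2 ± 4.67 CPM) and N4bp1 (18.0 ± 3.99 against 24.7 ± 6.99 CPM) were called lower at 30 mg/kg and none at 10 mg/kg.

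With ponatinib 3 mg/kg Nfkb2 was lower and Birc3 was higher than in control mice, and the other 8 genes were not called. At this dose 3.14% of all genes were called, 1.74% lower and 1.40% higher. With adjustment 0.0419% of all genes and neither Nfkb2 nor Birc3 passed. Nfkb2 ranged from 4.78 to 20.8 CPM (median 14.5), with 3 mice below every control mouse, and its log2 fold change was -0.69 ± 0.23 (SE; edgeR, adjusted p = 0.269). Birc3 ranged from 22.0 to 35.5 CPM (median 30.1) against 12.4 to 30.4 CPM in control mice (median 22.6), with 4 ponatinib mice above every control mouse. Its log2 fold change was 0.42 ± 0.16 (SE; edgeR, adjusted p = 0.316). The exact permutation test over 16 mice (two-sided) gave p = 0.0148 for Nfkb2 and p = 0.0104 for Birc3, both above the cut-off. Birc3 was not called without control mouse 1, 12, 28 or 40 or ponatinib mouse 13, 17, 23, 41 or 47 (log2 fold change 0.34 to 0.42), and Nfkb2 not without control mouse 1 or ponatinib mouse 34 or 47 (-0.63 to -0.56). The target gene Cxcl2 was called lower (0.0695 against 1.23 CPM). This is near the floor, as at least 1 ponatinib mouse had no read of Cxcl2. Of the markers, 2 of 5 for stellate cells and 1 of 5 for sinusoidal endothelial cells were called lower, and 2 of 8 for Kupffer cells and 1 of 5 for hepatocytes higher. The summed stellate cell markers were 390 ± 105 CPM (262 to 613 CPM) against 675 ± 271 CPM (310 to 988 CPM) in control mice, and the summed endothelial markers 132 ± 29.4 CPM (80.2 to 172 CPM) against 188 ± 69.5 CPM (104 to 327 CPM; SD, n = 8 each). No leukocyte marker was called (148 ± 43.3 against 156 ± 47.1 CPM in sum), and the part of these shifts in the calls of Nfkb2 and Birc3 was not tested.

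With ponatinib 10 mg/kg none of the 10 genes was called by edgeR, while 15.0% of all genes were. An unadjusted p below 0.05 was found for 1 of the 10, Nfkb2, and for 3686 of all 14314 genes. Nfkb2 ranged from 6.98 to 29.2 CPM (median 15.6), with 3 mice below every control mouse and mouse 8 above the rest of its group (log2 fold change -0.60 ± 0.23, SE; edgeR, adjusted p = 0.0749). It was called without ponatinib mouse 8 (-0.82), control mouse 28 (-0.69) or control mouse 52 (-0.67). Birc3 had 27.0 ± 4.04 CPM (SD, n = 8; log2 fold change 0.30, 95% interval -0.020 to 0.61) and Tnfaip3 6.87 ± 2.93 CPM (-0.63, interval -1.42 to 0.16). Of the markers, 2 of 5 for stellate cells and 1 of 8 for Kupffer cells were called lower. Called higher were 2 of 8 for Kupffer cells and 3 of 5 for hepatocytes, and the part of these shifts in the values of the 10 genes was not tested. Between the ponatinib doses none of the 10 was called by edgeR (5.78% of all genes). Of the 10, 1, Nfkbia, had an unadjusted p below 0.05 (2056 of all 14314 genes). The log2 difference of Nfkb2 between the doses was 0.087 (95% interval -0.38 to 0.56).

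In 2 ponatinib mice, transcripts of acute-phase proteins stood far above all other mice. Saa1 and Saa2, which encode serum amyloid A and are close paralogs, so that their split of reads is uncertain, reached 11884 and 13377 CPM in mouse 8 (10 mg/kg) and 1591 and 1404 CPM in mouse 13 (3 mg/kg). In the other 54 mice they were at most 458 and 259 CPM. Lcn2, the gene of lipocalin 2, was at 1906 and 724 CPM in mice 8 and 13 and at most 370 CPM elsewhere. In mouse 8 Nfkb2 (29.2 CPM), Bcl3 (35.4 CPM) and Tnfaip3 (13.2 CPM) were the highest of the group, while Relb (3.62 CPM) and Rel (6.96 CPM) were the second lowest. In mouse 13 Bcl3 was at 86.6 CPM, the highest value of all mice, and Nfkb2 (20.8 CPM) and Tnfaip3 (16.0 CPM) were the highest of the group. Mouse 17 of the same group had 60.2 CPM of Bcl3 with Saa1 at 82.2 CPM, and the other 6 mice had 9.43 to 18.4 CPM of Bcl3. Mouse 8 also decided calls of target genes. With ponatinib 10 mg/kg 7 of 19 target genes were called, Il1a, Cxcl2, Cxcl10, Cd83 and Csf1 lower and Saa1 (log2 fold change 3.77) and Saa2 (4.84) higher. Reads of Cxcl2 were not present in every ponatinib 10 mg/kg mouse. Without mouse 8 Saa1 (-1.17) and Saa2 (-0.88) turned and were not called, and the same 5 genes were called lower. Among the receptors Tnfrsf1b was called lower at this dose (32.6 ± 9.82 against 49.8 ± 8.52 CPM).

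**Figure D4:**
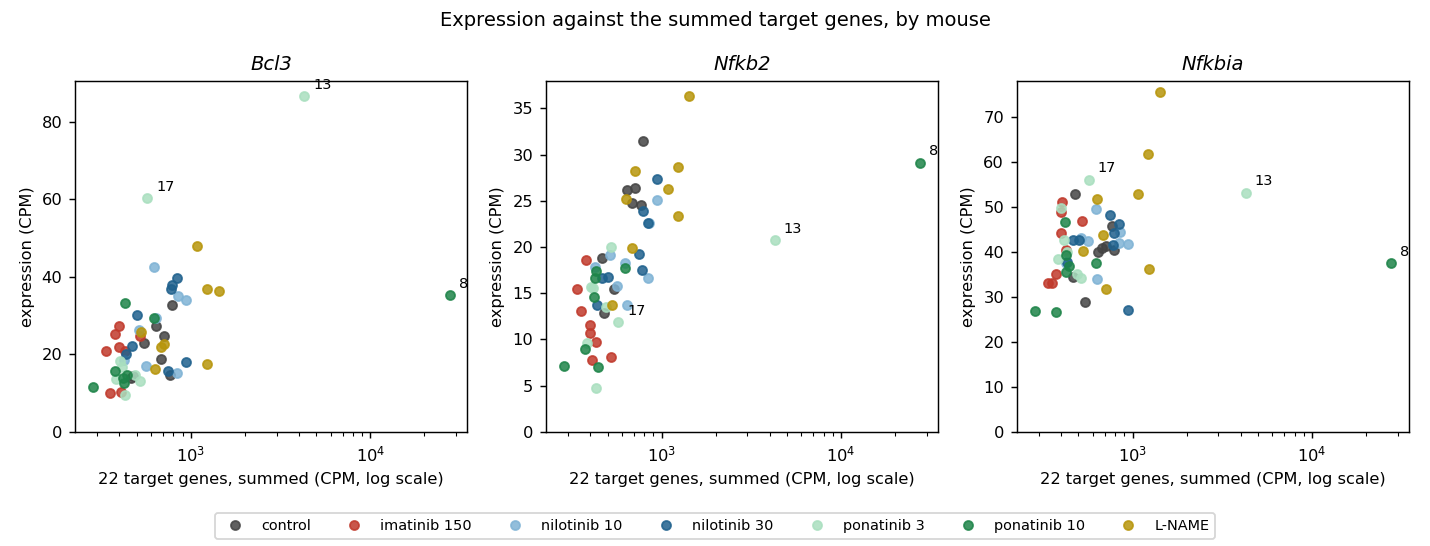
Expression (CPM, linear axis) of Bcl3, Nfkb2 and Nfkbia in each mouse against the summed level of 22 target genes (CPM, log axis), colored by group, with ponatinib mice 8, 13 and 17 numbered. Mouse 8 at 27615 CPM and mouse 13 at 4274 CPM stand to the right of all others, with 35.4 and 86.6 CPM of Bcl3 and with Nfkbia inside the range of the other mice. Most of these sums was Saa1 and Saa2, at 11884 and 13377 CPM in mouse 8 and 1591 and 1404 CPM in mouse 13.

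With L-NAME none of the 10 genes was called by edgeR, while 14.0% of all genes were. An unadjusted p below 0.05 was found for 1 of the 10, Nfkbia, and for 3471 of all 14314 genes. Nfkbia had 49.3 ± 14.4 CPM with L-NAME and 40.6 ± 7.06 CPM in the control group (SD, n = 8 each), with a log2 fold change of 0.28 (95% interval 0.0038 to 0.57; edgeR, adjusted p = 0.199). L-NAME mouse 32 had the highest Nfkb1, Nfkb2, Nfkbia and Tnfaip3 of its group (52.7, 36.4, 75.5 and 25.6 CPM) and the highest summed leukocyte markers of all mice (333 CPM). The summed leukocyte markers were 198 ± 73.6 CPM (96.3 to 333 CPM) in this group, in which Coro1a was called higher. Tab1, a partner of the kinase TAK1, was called higher among the other pathway genes (11.3 ± 3.57 against 6.50 ± 2.43 CPM).

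Expression was further compared between drugs. Nilotinib was derived from imatinib, whereas ponatinib carries an alkyne linker. Of 4 pairs of drugs and doses, only ponatinib and nilotinib at 10 mg/kg had the same mg/kg and number of gavages. Exposure was not matched, as the study calculated a higher plasma exposure for nilotinib than for ponatinib at this dose. In this pair Relb was lower with ponatinib and the other 9 genes were not called (6.73% of all genes called, 3.07% lower). Relb ranged from 2.86 to 7.33 CPM with ponatinib (median 6.44) and from 4.68 to 19.4 CPM with nilotinib (median 14.9), with 2 ponatinib mice below every nilotinib mouse (log2 fold change -1.10 ± 0.33, SE; edgeR, adjusted p = 0.0558). The exact permutation test over 16 mice (two-sided) gave p = 0.0106, above the cut-off. Called lower with ponatinib were also 2 of 4 leukocyte markers, 2 of 8 Kupffer cell, 3 of 5 sinusoidal endothelial and 3 of 5 stellate cell markers. Of 4 monocyte and neutrophil markers 1 was called lower, and of 5 hepatocyte markers 2 were called higher. The summed leukocyte markers were 125 ± 62.3 CPM (61.8 to 221 CPM) with ponatinib and 184 ± 64.3 CPM (134 to 289 CPM) with nilotinib (SD, n = 8 each), and the part of these shifts in the lower Relb was not tested. For Nfkb1, Rela, Nfkbia and Birc3 the 95% intervals lay between -0.51 and 0.30, and for Tnfaip3 the interval was -1.74 to -0.15.

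In the other 3 pairs the doses in mg/kg differed as well. Imatinib 150 mg/kg in 2 gavages had lower expression of 6 genes than nilotinib 30 mg/kg (7.55% of all genes called, 4.56% lower; 3.59% with adjustment). Relb (log2 fold change -1.35 ± 0.33, SE; edgeR, adjusted p = 0.0106) and Tnfaip3 (-1.50 ± 0.41, SE; edgeR, adjusted p = 0.0243) passed adjustment, and Nfkb2 (-0.73), Nfkb1 (-0.61), Nfkbie (-1.10) and Rel (-0.60) did not. For Tnfaip3, Nfkb2 and Rel, 6 of 8 imatinib mice lay below every nilotinib mouse. For Nfkb1 3 did, for Relb 1, nilotinib mouse 4 being at 2.64 CPM, and for Nfkbie 0, nilotinib mouse 54 being at 0.894 CPM. The exact permutation test (two-sided) gave p = 0.104 for Nfkbie, above the cut-off, and called the other 5 genes. Rel and Nfkbie were not called by limma voom, with or without sample quality weights, or with only the 2 groups in the fit. Rel was also lost without the filter on low counts, and Relb by limma voom without weights. The summed leukocyte markers were 188 ± 45.3 CPM (130 to 264 CPM) with nilotinib 30 mg/kg, above the whole range of the imatinib mice. Called lower with imatinib were 4 of 4 leukocyte, 4 of 8 Kupffer cell, 1 of 5 sinusoidal endothelial and 3 of 5 stellate cell markers. The part of these shifts in the lower expression of the 6 genes was not tested.

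Imatinib and ponatinib 10 mg/kg differed in 1 gene, Birc3, which was lower with imatinib (19.4 ± 3.69 against 27.0 ± 4.04 CPM; log2 fold change -0.48 ± 0.16, SE; edgeR, adjusted p = 0.157; 4.09% of all genes called, 1.88% lower), with 6 imatinib mice below every ponatinib mouse. Of the markers, 2 of 8 for Kupffer cells were called lower and 2 of 5 for sinusoidal endothelial cells higher with imatinib, and their part in this difference was not tested. Tnfaip3 (log2 difference -1.02, 95% interval -1.85 to -0.20) and Nfkb2 (-0.32, interval -0.80 to 0.15) were not called. Ponatinib 10 mg/kg was also set against nilotinib 30 mg/kg, and none of the 10 was called by edgeR (5.64% of all genes). Of the 10, 2, Rel and Relb, had an unadjusted p below 0.05 (1945 of all 14314 genes). These comparisons share mice with those against control.

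**Figure D5:**
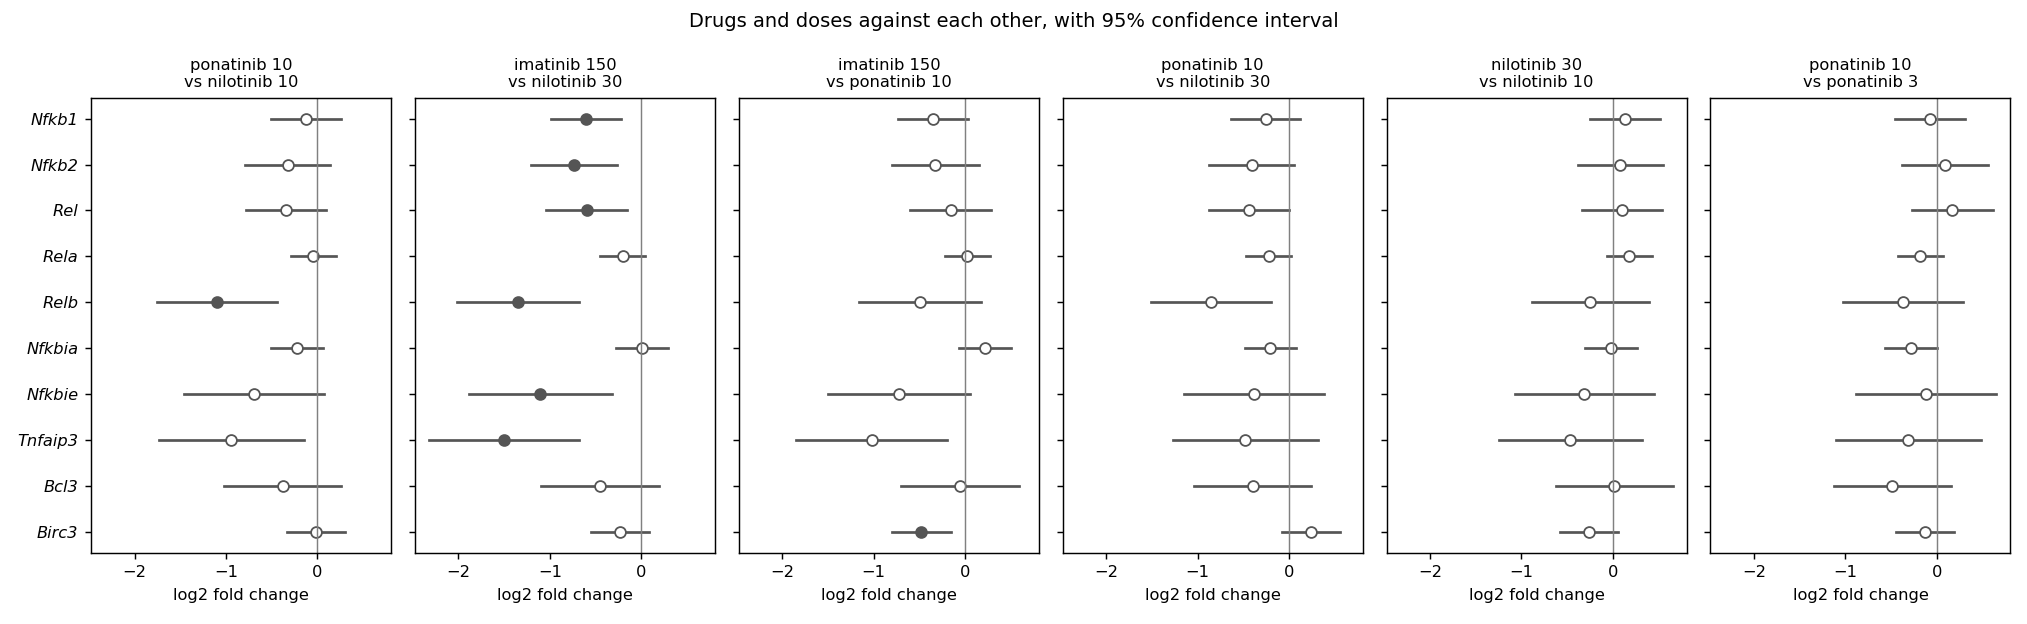
Log2 fold change of the 10 genes between drugs and between doses (edgeR, 8 mice per group), with the point as the estimate and the line as its 95% interval. Filled points were called; they are 6 genes for imatinib against nilotinib 30 mg/kg, Relb for ponatinib against nilotinib at 10 mg/kg and Birc3 for imatinib against ponatinib 10 mg/kg.

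Some of the 10 genes varied together among mice. After each group's mean was subtracted, Pearson's r of log2 expression over the 56 mice was highest for Nfkb1 with Nfkbie (0.52) and Relb with Bcl3 (0.51), followed by Nfkbie with Bcl3 and Rela with Nfkbia (both 0.48). Birc3 had no r above 0.16 with any of the other 9. By the same measure the genes most like Nfkb2 were Lcn2 (0.62), Orm2 and Tnip1 (both 0.60), of which Lcn2 and Orm2 encode acute-phase proteins. Ponatinib mice 8 and 13 had the highest Lcn2 of all mice and the highest Nfkb2 of their groups. Their weight in these values was not tested. Those most like Tnfaip3 were Prcp (0.62), Sept2 (0.61) and Cd180 (0.60). Those most like Nfkb1 were Cd300lb (0.64), Vav3 and Mtmr11 (both 0.61). For Relb they were Ajuba, the chemokine gene Cxcl10 (both 0.61) and Slc5a3 (0.59), for Nfkbie Nrros (0.59), Fpr1 and Adpgk (both 0.58), and for Birc3 Xpc, Rnf145 (both 0.55) and Kcnk5 (0.54). These values describe likeness across mice whose genes share library and depth.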

How the data were processed

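Liver poly(A) RNA of 56 mice was sequenced, 1 library per mouse. The authors deposited raw counts of reads per gene, made with TopHat2 2.0.14, Bowtie2 2.1.0, SAMtools 0.1.18 and HTSeq 0.6.1p1 on GRCm38 according to the submitters' processing notes. Reads aligned to several places were counted on no gene, which can lower the counts of paralogs. Of 45513 gene identifiers 44585 were named with the GENCODE vM21 annotation. Counts were analysed with edgeR 4.0.16 in R 4.3.3 (TMM normalization, filterByExpr with 14314 genes left, quasi-likelihood test, all 56 mice in 1 fit), in 12 comparisons. At an unadjusted p below 0.01, 143 genes are called by chance. DESeq2 1.42.0, limma 3.58.1 and exact permutation tests were alternatives, and the fits were tested on simulated data. Named were the 10 genes, other pathway genes called against control (at most 12 per comparison, in order of p), markers whose levels are given, and the 3 genes most like each of the 10 that was called against control. The genes, lists and tests were chosen with earlier results of these data known.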

Additional observations from a re-analysis of the deposited data

Results flagged for a closer look

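A mouse was compared with the nearest other mouse of its group, relative to the group's whole range (Dixon's test for 8 mice), for 70 groups of values of the 10 genes and 91 groups of summed lists. By chance about 1 in 20 groups stands out, and 2 of the 70 and 6 of the 91 did. Nfkbie stood out in nilotinib 10 mg/kg mouse 19 (17.1 CPM, nearest 10.7 CPM) and in ponatinib 3 mg/kg mouse 17 (18.3 CPM, nearest 8.96 CPM). Mouse 8 of ponatinib 10 mg/kg stood out with the highest summed target genes (27615 CPM), the highest summed receptors and adaptors (974 CPM) and the lowest summed hepatocyte markers (62205 CPM). Mouse 13 of ponatinib 3 mg/kg stood out with the summed target genes (4274 CPM) and receptors and adaptors (931 CPM), and mouse 29 of that group with the summed stellate cell and fibroblast markers (613 CPM). In mice 8 and 13 most of the summed target genes was Saa1 and Saa2.

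Drugs differed in 8 direct tests (edgeR, unadjusted p below 0.01). Ponatinib and nilotinib at 10 mg/kg differed in Relb (log2 fold change -1.10). Imatinib and nilotinib 30 mg/kg differed in Nfkb1 (-0.61), Nfkb2 (-0.73), Rel (-0.60), Relb (-1.35), Nfkbie (-1.10) and Tnfaip3 (-1.50), and imatinib and ponatinib 10 mg/kg in Birc3 (-0.48).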

How the results depend on the processing

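The 15 calls of single genes kept their direction under each alternative run (each mouse was left out in turn only in comparisons with control), with 194 values on the same side of the cut-off and 53 no longer past it. For imatinib against control, where 5 of the 10 genes were called, 3 passed an adjusted p of 0.05. Without control mouse 1, 3 were called, and leaving out 1 mouse at a time gave 3 to 5. Mouse 1 was the most deeply sequenced control mouse and had the highest Nfkb1, Nfkb2, Relb and Tnfaip3 of its group. For ponatinib 3 mg/kg (2 called) the number was 1 without a filter on low counts, with only the 2 groups in the fit, with the share of reads outside genes as covariate or without mice 13 and 17, and 0 by the adjusted p, by the exact permutation test or without control mouse 1, and 0 to 2 over mice left out. For ponatinib 10 mg/kg (0 called) it was 1 by limma voom, without the filter or without mouse 8, and 0 to 1 over mice left out. For L-NAME (0 called) it was 1 by limma voom with quality weights, and over mice left out 0 for L-NAME and both nilotinib doses. Imatinib against nilotinib 30 mg/kg (6 called) gave 3 by limma voom and 2 by the adjusted p. Imatinib against ponatinib 10 mg/kg (1 called) gave 2 by DESeq2 and by the exact permutation test and 0 by the adjusted p. Ponatinib against nilotinib at 10 mg/kg (1 called) gave 2 with only the 2 groups or without mouse 8, and 0 with quality weights, by the adjusted p and by the exact permutation test. Ponatinib 10 mg/kg against nilotinib 30 mg/kg (0 called) gave 1 by DESeq2, with the covariate and without mouse 8. Leaving out mouse 8, 10 or 1 or mice 13 and 17, or mice 3, 18 and 19, was chosen after seeing the data, and the cause of these changes was not tested. With quality weights the log2 fold change turned to -0.12 for Bcl3 with ponatinib 3 mg/kg, to 3.29e-05 for Nfkbia with ponatinib 10 mg/kg, and to 0.078 for Bcl3 and 0.13 for Relb between the ponatinib doses, and Bcl3 with ponatinib 3 mg/kg, over mice left out, ranged from -0.024 without mouse 13 to 0.60, none of them called. Without mouse 8, Saa1 and Saa2 with ponatinib 10 mg/kg turned to -1.17 and -0.88. No paired analysis was possible because each mouse has its own number and no number is shared between groups.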
